A study of Mus musculus with 6 samples.

Results

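The genes described here encode subunits of the Polycomb repressive complexes, and their transcripts were measured in mouse G1E-ER4 cells that had received the CHD4-APR or the CTRL peptide. The set was given by name as the 10 genes Ezh1, Ezh2, Eed, Suz12, Jarid2, Mtf2, Phf19, Ring1, Rnf2 and Bmi1. All 10 were among the 48709 gene identifiers counted, and all 10 were among the 12722 genes that passed the filter on low counts. GATA1 is the master regulator of red cell development. The parent line, G1E, has no working GATA1 of its own and stays immature, and in G1E-ER4 the factor is supplied as a GATA1-ER construct, held inactive until tamoxifen binds its ESR1 part and lets the cells mature. In the CHD4-APR group the cells received a peptide made from an aggregation-prone region of CHD4. This remodeling ATPase belongs to the NuRD complex and to the ChAHP complex, where it binds ADNP. In the CTRL group the cells received a peptide in which that stretch was replaced by alanines. Both peptides carried the cell-penetrating Tat sequence and were given at 10 μM. Both groups were given tamoxifen 2 h later and were collected after 28 h of it. The tamoxifen concentration is recorded as 100 nM in the growth protocol and as 100 μM in the design. Each group had 3 libraries of polyadenylated RNA from this single line, and cells without tamoxifen or without peptide are not analysed here.

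Polycomb proteins keep developmental genes silent through a pair of histone marks. Polycomb repressive complex 2 (PRC2) methylates lysine 27 of histone H3 through EZH1 or EZH2, held together by EED and SUZ12. Accessory proteins such as MTF2, PHF19 and JARID2 guide it to CpG-rich promoters. Polycomb repressive complex 1 (PRC1) attaches ubiquitin to histone H2A through RING1 or RNF2, joined to a PCGF protein such as BMI1. In blood formation the balance of the complexes is known to shift with differentiation, EZH2 being typical of dividing progenitors and EZH1 of mature cells. PRC2 and NuRD share the histone-binding proteins RBBP4 and RBBP7.

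The libraries held between 41687482 and 49784177 counts. The erythroid label was borne out by the marker genes, since all 12 erythroid markers passed the filter, with a summed level between 59820 and 75941 CPM (counts scaled to a common library size) per library. Of the 6 macrophage markers 2 passed the filter, with a summed level over all 6 of 8.36 to 9.80 CPM with CTRL and 6.79 to 8.16 CPM with CHD4-APR, and Adgre1 and Cd14 were listed at 0 in every library. Of the 6 megakaryocyte markers 4 passed, with a sum of 47.6 to 50.2 CPM with CTRL and 41.2 to 46.8 CPM with CHD4-APR, and Ppbp was at 0. Of these markers Cd68 (log2 fold change -0.38) and Gp9 (-0.31) were called lower, and neither passed with the correction for length and GC content. The lymphoid markers summed to 0.324 to 0.661 CPM, and none of the 6 fibroblast and epithelial markers passed. The erythroid sum also differed between the groups, at 70567 to 75941 CPM with CTRL and 59820 to 63890 CPM with CHD4-APR, and the part of these marker levels in the results on the Polycomb genes was not tested. Single markers went both ways, as 2 of the 12 rose, Tfrc and Epb42 (log2 fold changes 0.26 and 0.34), 5 fell and 5 did not pass the test described next, and with the correction for length and GC content 2 rose, Epb42 and Slc4a1, and 2 fell, while Tfrc was at -0.024 and did not pass.

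With CHD4-APR, 5 of the 10 genes rose and none fell at a false discovery rate (FDR, the Benjamini-Hochberg adjusted p of edgeR's quasi-likelihood test over all genes tested) under 0.05. The genes that rose were Suz12, Mtf2 and Jarid2 of PRC2 and Rnf2 and Bmi1 of PRC1. Both methyltransferase genes, Ezh1 and Ezh2, and Eed, Phf19 and Ring1 did not pass. DESeq2 and limma-voom also called 5 genes higher and 0 lower, and at an unadjusted p under 0.05 edgeR had 5 higher and 2 lower. Of all genes tested, 20.4% were called higher and 17.8% lower, 38.3% in all, and once trends with the length and GC content of transcripts were removed 11.8% were called higher and 16.3% lower. In that corrected fit 3 of the 10 genes rose, Suz12, Rnf2 and Bmi1, and 2 fell, Ezh1 and Ezh2. The median log2 fold change was 0.19 over the 10 genes and -0.012 over all genes tested. The rises were moderate: none of the 10 reached 1.5-fold, which 3.48% of all genes tested exceeded as called rises. The 3 CHD4-APR libraries lay wholly above the 3 CTRL libraries for 5 of the 10 genes and wholly below for 1, against 25.0% of all genes tested in each direction. A test on all RNA of a culture cannot tell fewer cells of a type from less RNA per cell.

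**Figure D1:**
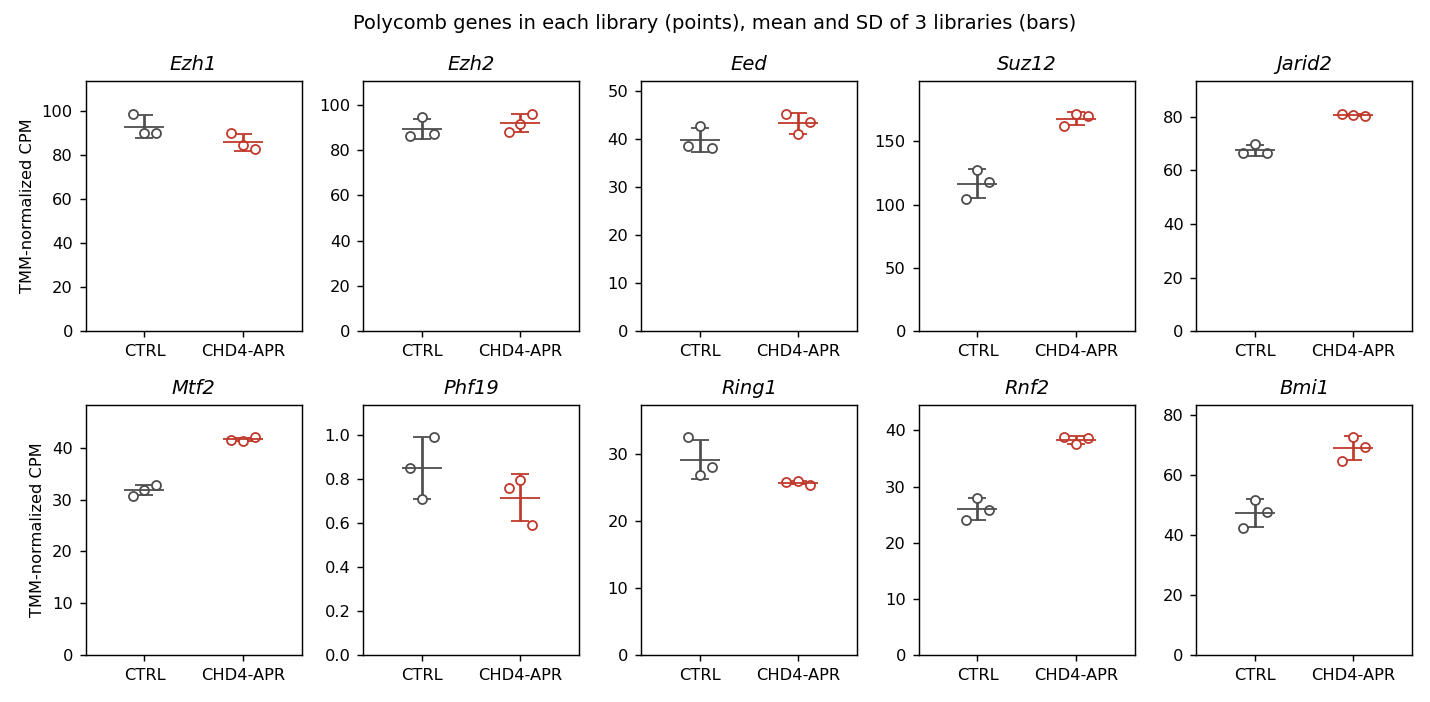
Level of each of the 10 Polycomb genes in CPM normalized by TMM (y axis, from 0, with its own range in each panel) in the CTRL and CHD4-APR libraries. Each circle is 1 library, and the bars are the mean and SD of 3. The circles of the groups do not overlap for Suz12, Jarid2, Mtf2, Rnf2 and Bmi1, which were higher with CHD4-APR, and for Ring1, which was lower and did not pass the test.

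The 3 genes with the largest rises were Suz12, Rnf2 and Bmi1. Their log2 fold changes stood at the percentiles 93.6, 94.5 and 94.1 of all genes tested. Because they moved together, the bases before their transcription starts are shown, with those of Ring1, the counterpart of Rnf2 that did not rise, for comparison. The sequences are RefSeq's on GRCm38.p6, each the 250 bases before the start, written 5′ to 3′ on the gene's strand. They lie at chr11:79992856-79993105 on the plus strand for Suz12, chr1:151500992-151501241 on the minus strand for Rnf2, chr2:18676768-18677017 on the plus strand for Bmi1 and chr17:34024681-34024930 on the minus strand for Ring1. Capitals mark matches to the motifs named next.
Suz12: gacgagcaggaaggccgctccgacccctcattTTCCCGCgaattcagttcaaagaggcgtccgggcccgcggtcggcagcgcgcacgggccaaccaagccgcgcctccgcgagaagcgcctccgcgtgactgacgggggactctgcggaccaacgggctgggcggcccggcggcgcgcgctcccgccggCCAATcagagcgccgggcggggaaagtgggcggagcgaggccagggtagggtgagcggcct
Rnf2: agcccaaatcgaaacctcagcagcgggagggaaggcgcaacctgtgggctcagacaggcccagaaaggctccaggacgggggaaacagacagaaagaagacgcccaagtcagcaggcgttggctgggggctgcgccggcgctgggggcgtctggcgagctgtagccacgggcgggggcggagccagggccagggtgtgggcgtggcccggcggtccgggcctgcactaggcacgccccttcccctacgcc
Bmi1: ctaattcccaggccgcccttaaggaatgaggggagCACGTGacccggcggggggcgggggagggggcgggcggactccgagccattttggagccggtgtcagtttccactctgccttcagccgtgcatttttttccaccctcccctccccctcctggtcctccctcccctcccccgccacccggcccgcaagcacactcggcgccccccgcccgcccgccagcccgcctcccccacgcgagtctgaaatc
Ring1: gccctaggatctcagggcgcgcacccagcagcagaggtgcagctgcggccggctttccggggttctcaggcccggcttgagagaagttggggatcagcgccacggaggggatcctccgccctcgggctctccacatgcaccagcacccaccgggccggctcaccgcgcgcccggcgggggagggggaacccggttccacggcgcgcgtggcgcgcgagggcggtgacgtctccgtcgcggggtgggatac

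Motifs were searched on both strands in the window from 250 bases before to 50 bases after each start, and the 10 genes had 12 such windows. The E2F motifs GCGGGAA and GCGCGAA, read by the cell cycle factors of that name, occurred in the windows of Suz12 and Phf19, and in 6.00% of all 32851 windows. The NF-Y motif CCAAT occurred in 6 of the 12 windows, those of Ezh2, Eed, Suz12 and Jarid2 and 1 of the windows of Mtf2, against 37.4% of all windows. The E-box CACGTG occurred in the window of Bmi1 alone among the 10 genes, against 7.15%. The GATA motif AGATAA and the ETS motif CCGGAAG were in none of the 12 windows, against 11.2% and 8.86% of all windows. None of these motifs was in the windows of Rnf2 and Ring1. The number of CpG dinucleotides was 41 for Suz12, 37 for Ring1, 30 for Rnf2 and 23 for Bmi1, where the median of all windows was 7.0. All 4 windows thus held more CpG than the median, and no searched motif was common to Suz12, Rnf2 and Bmi1. Of the other genes that rose, Jarid2 had 24 and 23 CpG in its windows, and Mtf2 had 30 in one window and 2 in the other.

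In the core of PRC2, Suz12 rose while the other core genes did not pass. Suz12, the scaffold on which the complex is built (chromosome 11, 79993106 to 80034123 on GRCm38), was at 104.7, 127.2 and 118.1 CPM in the CTRL libraries and at 162.3, 171.8 and 169.6 CPM in the CHD4-APR libraries. Every CHD4-APR library lay above every CTRL library, and CTRL replicate 1 was the lowest of all 6. The mean went from 116.7 ± 11.3 to 167.9 ± 5.0 CPM (SD, n = 3), a log2 fold change of 0.52 (SE 0.058, 95% interval 0.40 to 0.65, FDR = 5.83e-06 by edgeR), or 1.44-fold.

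The methyltransferase genes did not pass without the correction, and with it both passed as lower, Ezh1 at -0.18 (FDR = 0.00949 by edgeR) and Ezh2, with its sign turned, at -0.15 (FDR = 0.0158). Ezh2, the main methyltransferase of dividing cells (chromosome 6, 47530139 to 47595341), was at 86.2, 94.4 and 87.2 CPM with CTRL and at 88.2, 91.5 and 96.1 CPM with CHD4-APR. The groups overlapped, and the log2 difference was 0.042 (95% interval -0.065 to 0.15, FDR = 0.553 by edgeR). Ezh1, its counterpart of weaker activity (chromosome 11, 101191115 to 101226463), was at 98.8, 90.2 and 89.9 CPM with CTRL and at 90.0, 84.6 and 82.8 CPM with CHD4-APR. These groups overlapped too, with 1 CHD4-APR library at the level of the lower CTRL libraries, and the log2 difference was -0.12 (95% interval -0.22 to -0.0064, FDR = 0.0889). On leaving out single libraries it ranged from -0.15 to -0.070, the latter without CTRL replicate 1 (FDR = 0.274), and never passed. The upper ends of the 95% intervals of Ezh2 and Ezh1 lay below the lower end of that of Suz12.

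Eed, whose product reads the methyl mark and stimulates the enzyme (chromosome 7, 89954654 to 89980983), was at 38.6, 42.7 and 38.2 CPM with CTRL and at 45.3, 41.0 and 43.5 CPM with CHD4-APR. The groups overlapped through CTRL replicate 2, and the log2 difference was 0.12 (95% interval -0.0075 to 0.25, FDR = 0.13 by edgeR). Without CTRL replicate 2 the difference was 0.17 and passed, with an FDR of 0.0356.

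The accessory genes of PRC2 were divided. Mtf2, whose product binds CpG-rich DNA and brings PRC2 to it (chromosome 5, 108065674 to 108109004), was at 30.8, 32.0 and 32.8 CPM with CTRL and at 41.6, 41.3 and 42.0 CPM with CHD4-APR. The groups lay far apart beside their narrow spread. The mean went from 31.8 ± 1.04 to 41.6 ± 0.373 CPM, a log2 fold change of 0.39 (SE 0.054, FDR = 4.53e-05 by edgeR), or 1.31-fold. With the correction for length and GC content it was 0.079 and did not pass (FDR = 0.262). Mtf2 shares 395 of its 5698 exon bases with Tmed5 on the opposite strand, and the library kit does not mark strand. Tmed5 also rose, by 0.70 on the log2 scale (FDR = 1.27e-06). How reads over both genes were counted is not given, so a part of the Mtf2 counts may come from Tmed5.

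Jarid2, which joins PRC2 in its other accessory form and recognizes ubiquitylated H2A (chromosome 13, 44729474 to 44921643), was at 66.3, 69.9 and 66.3 CPM with CTRL and at 81.1, 80.8 and 80.2 CPM with CHD4-APR. The CHD4-APR libraries agreed within 1 CPM and all lay above CTRL. The log2 fold change was 0.26 (SE 0.046, FDR = 3.78e-04 by edgeR), or 1.20-fold, the smallest of the 5 rises without the correction. With the correction it was 0.11 (FDR = 0.0549), above that of Mtf2 at 0.079. Phf19, a relative of MTF2 with a reader domain for methylated H3, was near the limit of detection. It had 36, 35 and 41 counts with CTRL and 34, 34 and 28 counts with CHD4-APR, which left a log2 difference of -0.24 with a 95% interval from -0.81 to 0.32 (FDR = 0.512).

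In PRC1, Rnf2 and Bmi1 rose and Ring1 did not pass. Rnf2, which encodes the main H2A ubiquitin ligase RING1B (chromosome 1, 151458004 to 151500955), was at 24.1, 28.0 and 25.9 CPM with CTRL and at 38.8, 37.5 and 38.6 CPM with CHD4-APR. All CHD4-APR libraries were higher, and the log2 fold change was 0.56 (SE 0.063, 95% interval 0.43 to 0.69, FDR = 6.42e-06 by edgeR), or 1.47-fold. This was the largest among the 10 genes in the fit without the correction. With the correction Bmi1 (0.330) was slightly above Rnf2 (0.326). Rnf2 shares 158 of its 4127 exon bases with Trmt1l on the opposite strand, which had a log2 difference of -0.040 (FDR = 0.505).

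Ring1, which encodes the alternative ligase RING1A (chromosome 17, 34020792 to 34024680), was at 32.5, 26.8 and 28.1 CPM with CTRL and at 25.9, 25.9 and 25.4 CPM with CHD4-APR. The CHD4-APR libraries were all lower, though only narrowly lower than CTRL replicate 2, and CTRL replicate 1 was the highest. The log2 difference was -0.18 (SE 0.070, 95% interval -0.33 to -0.030) and missed the threshold (FDR = 0.0542 by edgeR). Without CTRL replicate 1 it was -0.095 (FDR = 0.258), and with the correction for length and GC content it was -0.044 (FDR = 0.636). Without CTRL replicate 2 it was -0.24 and passed, with an FDR of 0.0143, and it passed with upper-quartile scaling (FDR = 0.0347) and without a filter on low counts (FDR = 0.0481).

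Bmi1, the PCGF subunit of canonical PRC1 that blood stem cells need for self-renewal (chromosome 2, 18677018 to 18686629), was at 42.2, 51.6 and 47.7 CPM with CTRL and at 64.5, 72.4 and 69.3 CPM with CHD4-APR. All CHD4-APR libraries lay above all CTRL libraries. The mean went from 47.2 ± 4.75 to 68.8 ± 4.00 CPM, a log2 fold change of 0.54 (SE 0.067, 95% interval 0.40 to 0.68, FDR = 1.51e-05 by edgeR), or 1.46-fold.

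Pairs of alternative subunits were set against each other within each library, where scaling cancels out. The ratio of Ring1 to Rnf2 counts was 1.35, 0.958 and 1.09 with CTRL and 0.667, 0.690 and 0.658 with CHD4-APR. Every CHD4-APR library was lower, and the log2 ratio went from 0.16 ± 0.25 to -0.57 ± 0.036 (SD, n = 3). A two-sided exact permutation test gave p = 0.1, as low as 3 against 3 libraries can reach, and 0.2 adjusted over the 4 ratios tested. With the correction for length and GC content the difference was -0.37, from -0.74 without it. The log2 ratio of Mtf2 to Phf19 was higher by 0.63 in the CHD4-APR libraries without overlap (exact permutation p = 0.1, adjusted 0.2), and by 0.28 (p = 0.2) with the correction. Without CHD4-APR replicate 3 it was 0.49 (exact permutation p = 0.2). The log2 ratio of Ezh1 to Ezh2 differed by -0.16 with overlap (exact permutation p = 0.2, adjusted 0.267), by -0.024 with the correction (p = 0.7), by -0.088 without CTRL replicate 1 and by -0.10 without CHD4-APR replicate 3. That of Bmi1 to Pcgf2, a related PCGF gene with few counts, differed by 0.11 with overlap (exact permutation p = 0.7), by -0.20 with the correction and by -0.093 without CTRL replicate 2.

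**Figure D2:**
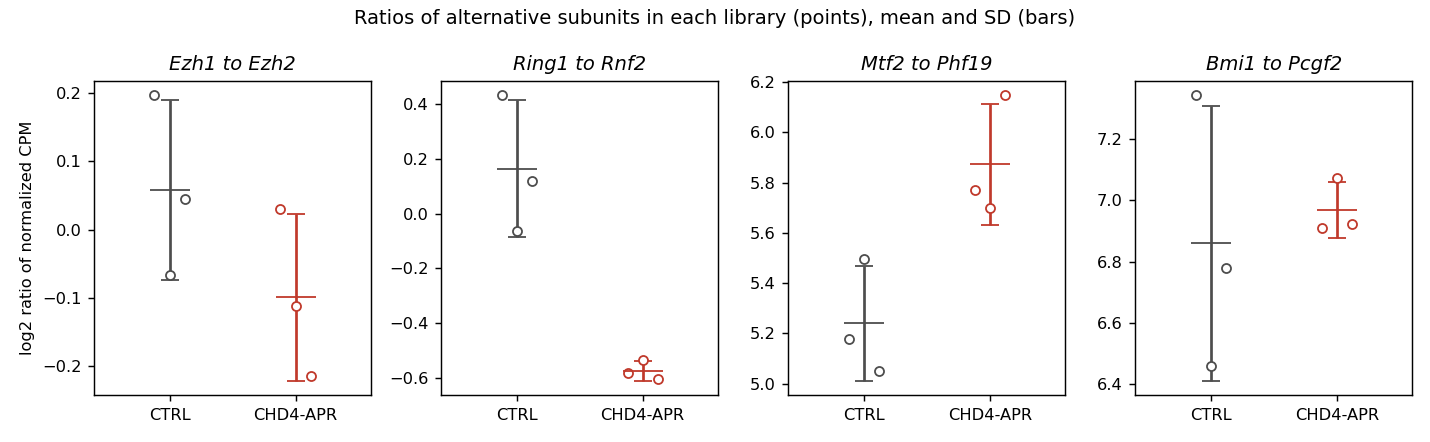
log2 ratio of the counts of paired Polycomb genes (y axis) in each CTRL and CHD4-APR library. Each circle is 1 library and the bars are the mean and SD of 3. The Ring1 to Rnf2 ratio was lower in all 3 CHD4-APR libraries and the Mtf2 to Phf19 ratio higher, while the other ratios overlapped.

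Levels between genes were compared as RPKM, the normalized CPM per kilobase of the union of each gene's exons. In the CTRL libraries Suz12 was the most abundant at 23.6 ± 2.28 RPKM. It was followed by Ezh2 at 13.4 RPKM, Ezh1 at 12.5 RPKM, Bmi1 at 11.9 RPKM, Eed at 10.4 RPKM and Ring1 at 8.98 RPKM, and neighbours in this order from Ezh2 to Ring1 overlapped in their ranges. Jarid2 at 6.95 RPKM, Rnf2 at 6.29 RPKM and Mtf2 at 5.59 RPKM followed without overlap between neighbours, and Phf19 was far below at 0.169 RPKM. In the CHD4-APR libraries Suz12 stood at 34.0 RPKM and Bmi1 came next at 17.3 RPKM, ahead of Ezh2 at 13.8 RPKM. Rnf2, at 9.28 RPKM, was then above Ring1, at 7.93 RPKM. The order depends on the length used: by the longest transcript 4 of the 10 genes kept their CTRL rank, and Suz12 and Ezh2 changed places.

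The fold changes of all genes were related to the base composition of their transcripts, and 4 of the 5 genes that rose are poor in GC. Suz12 (41.6% GC), Bmi1 (40.2%), Rnf2 (39.5%) and Mtf2 (38.2%) lay in the lowest of 5 equally large classes of GC content, under 43.7%, where 46.7% of 2536 genes were called higher and the median log2 fold change was 0.22, with an upper quartile of 0.43. Suz12, Bmi1 and Rnf2 were above that quartile, and Mtf2 was between it and the median. Jarid2 (48.8% GC) lay in the middle class, where 15.7% were called higher and the upper quartile was 0.15, below its own 0.26. Ring1, the richest in GC at 56.9%, lay in the highest class, where 2.88% were called higher and the median was -0.15.

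**Figure D3:**
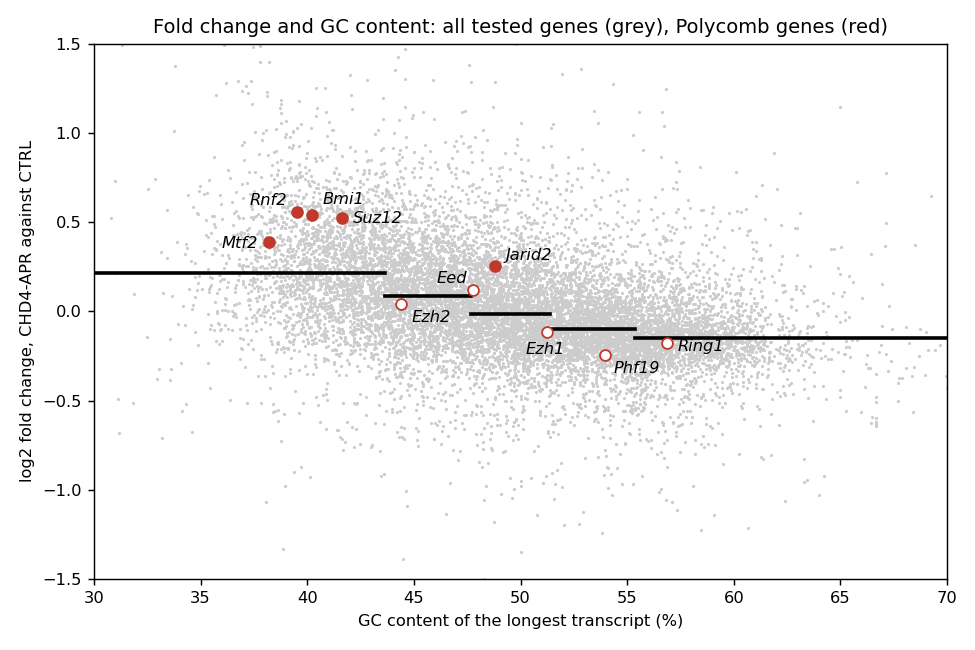
log2 fold change of CHD4-APR against CTRL (y axis) by the GC content of the transcript in percent (x axis) for all genes tested with a known GC content (small points), with the 10 Polycomb genes named. Black lines are the medians of the 5 GC classes, filled red circles passed the test, and the axes leave out the most extreme genes. Fold changes fall with GC content, and Suz12, Rnf2 and Bmi1 stand above most genes of like GC content.

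A second fit therefore removed each library's trend with transcript length and GC content. It called 3 of the 10 genes higher and 2 lower, where 11.8% of 12677 genes were called higher and 16.3% lower. Suz12 (log2 fold change 0.31, FDR = 7.23e-05 by edgeR), Rnf2 (0.33, FDR = 2.33e-04) and Bmi1 (0.33, FDR = 1.71e-04) passed in both fits, with smaller changes in the corrected one. Mtf2 (0.079, FDR = 0.262) and Jarid2 (0.11, FDR = 0.0549) no longer passed, Jarid2 narrowly. Ezh1 (-0.18, FDR = 0.00949) and Ezh2 (-0.15, FDR = 0.0158) passed as lower in this fit, the latter with the opposite sign to the fit without the correction. Ring1 was at -0.044 (FDR = 0.636), Eed at 0.088 (FDR = 0.244) and Phf19 at -0.20 (FDR = 0.626). The sign for Ezh2 and the calls on Ezh1, Mtf2 and Jarid2 therefore depended on the joint correction, and the calls on Suz12, Rnf2 and Bmi1 did not.

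**Figure D4:**
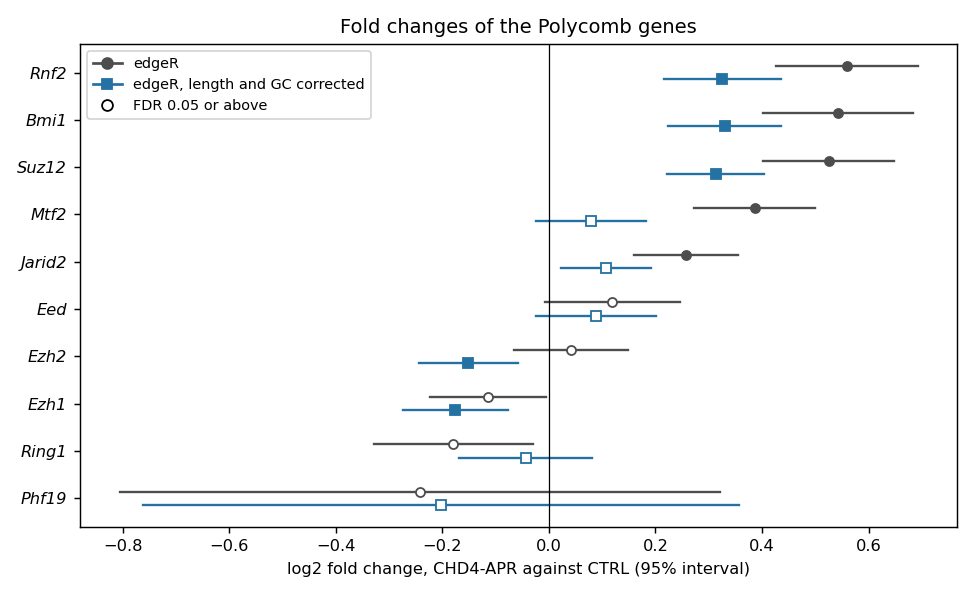
log2 fold change of CHD4-APR against CTRL (x axis) with its 95% interval for each of the 10 Polycomb genes. Circles are without and squares with the correction for length (union of the exons) and transcript GC content. Filled symbols passed an FDR of 0.05. Suz12, Rnf2 and Bmi1 are filled on the right in both fits, and Ezh1 and Ezh2 are filled on the left after the correction alone.

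The remaining genes of the Polycomb system showed more rises than falls. Outside the 10 genes, 53 genes of subunits and of enzymes that oppose Polycomb were listed, of which 43 passed the filter. Of these, 21 rose, 3 fell and 19 did not pass, with a median log2 fold change of 0.18, where 20.4% of all genes tested were called higher and 17.8% lower. With the correction for length and GC content 12 rose and 3 fell, where 11.8% of all genes were called higher and 16.3% lower. The genes that fell were Pcgf1 and, named after their values were seen, Max (log2 fold change -0.13, FDR = 0.0193 by edgeR) and Mbd6 (-0.22, FDR = 0.0046).

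Among the other subunits of PRC2, 4 of the 6 tested rose and none fell (1 at an unadjusted p under 0.05 by edgeR, 0 by DESeq2 and limma-voom), but 1 of the 4 rose after the correction. Of all genes tested 20.4% were called higher, and 11.8% with the correction, which is near 1 in 6. That gene was Lcor, from whose locus the PRC2 cofactor PALI1 is also made. Lcor was at 6.52, 7.13 and 7.75 CPM with CTRL and at 16.7, 17.9 and 15.1 CPM with CHD4-APR. All CHD4-APR libraries lay above 15 CPM and all CTRL libraries below 8 CPM, and the log2 fold change was 1.22 (SE 0.091, FDR = 3.88e-07). It was 0.94 (FDR = 2.98e-06) with the correction, larger than that of any of the 10 genes. The counts do not separate PALI1 from the other products of Lcor.

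Of the other genes of this list, Aebp2, the partner of JARID2, rose by 0.36 on the log2 scale (FDR = 1.65e-04 by edgeR), and its value with the correction was 0.020 (FDR = 0.837). Lcorl, a relative of Lcor, rose by 0.56 (FDR = 5.4e-06), with 0.064 (FDR = 0.437) after the correction, and shares 944 exon bases with Ncapg. Rbbp4, the histone-binding subunit shared with NuRD, rose by 0.19 (FDR = 0.00391), and its value turned to -0.022 with the correction. Rbbp7, its relative, was at 0.044 (FDR = 0.577), and Phf1, the third member of the MTF2 family, at -0.14 (FDR = 0.0968) and at -0.0099 (FDR = 0.912) with the correction. Phf1 passed without CTRL replicate 2 (-0.22, FDR = 0.00576) and was at -0.070 (FDR = 0.379) without CTRL replicate 1. It shares 1370 of its 3486 exon bases with Cuta on the opposite strand, which has more counts and a log2 fold change of -0.26 (FDR = 0.00154), so their reads cannot be told apart there.

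The PCGF genes other than Bmi1, whose products set the form that a PRC1 particle takes, held 1 rise and 1 fall among 5, near the shares of all genes tested (20.4% higher and 17.8% lower). Pcgf3 rose by 0.27 (FDR = 0.00822 by edgeR), with 0.0098 after the correction, and without CHD4-APR replicate 1 it was 0.20 and did not pass (FDR = 0.0516). Pcgf1, the subunit of the BCOR complex, was at -0.27 (FDR = 0.00458), and at -0.18 (FDR = 0.0443) with the correction. Pcgf2 was at 0.34 (FDR = 0.457) from 11 to 29 counts a library. It was at 0.092 without CTRL replicate 1 and at 0.66 without CTRL replicate 2, and passed in neither fit.

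In canonical PRC1, the form that reads methylated H3 through CBX proteins, 7 of 11 genes were listed at 0 in every library, among them Cbx2, Cbx8 and Scmh1. Because 8440 of the 21695 protein-coding genes are at 0 in all 6 libraries, such a value says only how the gene is listed. In a single library 3 counts, taken as the most that a true count of 0 allows, correspond to 0.061 to 0.072 CPM, for counting error only. This sets no limit on a gene that is at 0 only through how it is listed. Cbx7, the reader that was measured, was at 0.029 (FDR = 0.738 by edgeR). Phc3, which joins PRC1 particles into larger bodies, was the 1 gene of the 4 tested that rose, by 0.44 (FDR = 2.29e-05), with 0.089 (FDR = 0.145) after the correction. A count of 1 in 4 is close to the 20.4% of all genes called higher.

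Of the 16 tested subunits of variant PRC1, the forms without CBX proteins, 7 rose and 1 fell, and 5 rose and 1 fell with the correction. The shares over all genes were 20.4% higher and 17.8% lower, and 11.8% and 16.3% with the correction. Mga, the DNA-binding scaffold of the PCGF6 form, went from 30.0 ± 3.06 to 48.5 ± 1.51 CPM, a log2 fold change of 0.69 (FDR = 1.99e-06 by edgeR), with 0.32 (FDR = 2.01e-04) after the correction. Bcor, the corepressor of the PCGF1 form, rose by 0.28 (FDR = 1.89e-04), with 0.22 (FDR = 4.84e-04) after the correction. Yaf2, which binds RING1B in place of a CBX protein, rose by 0.31 (FDR = 0.0266). The call on Yaf2 was lost without CTRL replicate 1 (FDR = 0.0513), CTRL replicate 3 (FDR = 0.136), CHD4-APR replicate 1 (FDR = 0.0808) or CHD4-APR replicate 2 (FDR = 0.0608).

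Of the catalytic enzymes that take the Polycomb marks off, Kdm6a rose and Kdm6b and Bap1 did not pass. Kdm6a, a demethylase of lysine 27 of histone H3, was at 44.7, 58.2 and 53.0 CPM with CTRL and at 83.3, 86.1 and 83.8 CPM with CHD4-APR. The groups did not overlap, and the log2 fold change was 0.70 (SE 0.070, FDR = 2.56e-06 by edgeR), with 0.43 (FDR = 3.67e-05) after the correction, so that it exceeded those of the 10 subunit genes in both fits. Kdm6b, the other such demethylase, was at -0.030 (FDR = 0.641).

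Of 10 tested genes of the PR-DUB complex, which removes ubiquitin from H2A, 7 rose and 1 fell, and 5 rose and 1 fell with the correction, beside 20.4% higher and 17.8% lower over all genes, or 11.8% and 16.3% corrected. Bap1, its catalytic subunit, was at -0.096 (FDR = 0.115 by edgeR). Its partners Asxl1 (0.12, FDR = 0.0383) and Asxl2 (0.47, FDR = 5.32e-06) rose, and neither passed with the correction, at 0.067 (FDR = 0.203) and 0.080 (FDR = 0.137). The call on Asxl1 was also lost without CTRL replicate 2 (FDR = 0.11), CTRL replicate 3 (FDR = 0.0802), CHD4-APR replicate 1 (FDR = 0.129) or CHD4-APR replicate 3 (FDR = 0.101). Ogt, the sugar transferase that binds the complex, rose by 0.37 (FDR = 1.99e-05), with 0.11 (FDR = 0.0315) after the correction. Kdm1b rose by 0.50 (FDR = 0.00441), with 0.34 (FDR = 0.0487) after the correction. It had 904 counts in all and shares 505 exon bases with Dek, which had 49765 and rose by 0.22 (FDR = 0.0137). A part of the Kdm1b counts may therefore come from Dek.

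**Figure D5:**
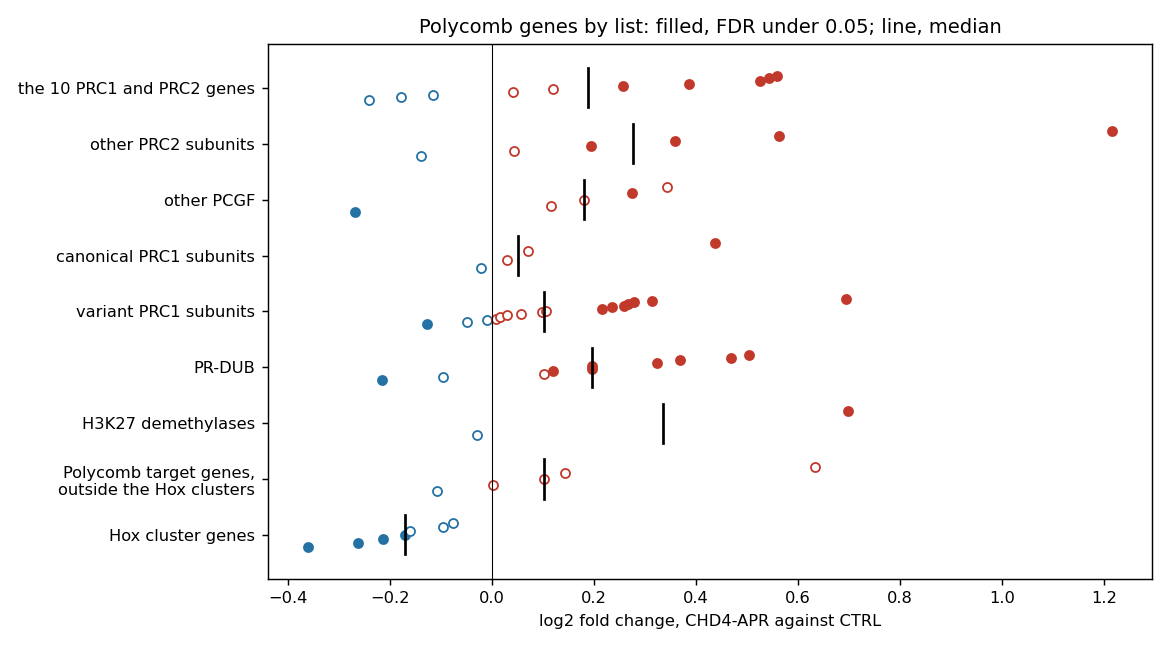
log2 fold change of CHD4-APR against CTRL (x axis) of each tested gene of the Polycomb lists (circles, 1 row per list, red above 0 and blue below), in the fit without the correction. Filled circles passed an FDR of 0.05, and black lines are the medians. Rises outnumber falls among the subunits and opposing enzymes, where 20.4% of all genes tested were called higher and 17.8% lower. Among the Hox genes 4 of 7 fell, and 2 fell with the correction.

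Genes that Polycomb is known to hold silent were mostly listed at 0. Of 39 Hox cluster genes, which give cells their position along the body axis, 30 were at 0 in all libraries and 7 were tested. Of these 7, 4 fell and none rose (0 at an unadjusted p under 0.05 by edgeR, and 0 by DESeq2 and limma-voom), with a median log2 fold change of -0.17, and 2 fell with the correction. Of all genes tested 17.8% were called lower, and 16.3% with the correction. Hoxc9 was at 30.1, 25.0 and 26.1 CPM with CTRL and at 21.6, 21.4 and 20.1 CPM with CHD4-APR. The groups were apart, with a log2 fold change of -0.36 (FDR = 0.0011 by edgeR) and of -0.22 (FDR = 0.0173) with the correction. Hoxc6 went from 145.5 ± 8.06 to 121.2 ± 3.81 CPM, a log2 fold change of -0.26 (FDR = 5.07e-04), and was at -0.16 (FDR = 0.00943) with the correction. Hoxb13 (-0.21, FDR = 0.0257) and, named after its values were seen, Hoxc4 (-0.17, FDR = 0.0156) did not pass with the correction. Hoxb13 passed without CTRL replicate 2 but not on leaving out any other single library (FDR from 0.0628 to 0.101).

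Of 30 other well-known Polycomb targets, such as the developmental regulators of neural, gut and muscle lineages, 19 were at 0 in all libraries and 5 were tested. None of the 5 passed by edgeR, DESeq2 or limma-voom, and 1 had an unadjusted p under 0.05 by edgeR. Of all genes tested 38.3% were called by edgeR in either direction. The genes tested were those that passed the filter on low counts, so a change in targets that are silent or have few reads was not tested.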

How the data were processed

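Reads had been trimmed (Cutadapt), mapped to GRCm38 (STAR 2.7.10a) and summed over Ensembl genes (featureCounts) by the authors. The deposited values are raw counts, without normalization. The treatment of strand and of reads with several matches is not given in the sources used here. Another 2 columns match no sample and were not used.

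Genes were named, and lengths and GC content taken, from GENCODE M21 (48349 of 48709 identifiers). Promoters came from RefSeq (10 of 10 genes). The groups were compared with edgeR 4.0.16 in R 4.3.3 after filterByExpr and TMM scaling, by the quasi-likelihood test with Benjamini-Hochberg adjustment over 12722 genes and a threshold of 0.05. In the correction for length and GC content, trends of log2 CPM smoothed with mgcv 1.9.3 entered as offsets. DESeq2 1.42.0 and limma 3.58.1 were alternatives. The edgeR fit, with and without the correction, and the DESeq2 and limma-voom fits were also run on simulated counts, with results not given here. The other procedures were not run on simulated counts.

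The labels do not say that the 3 libraries of a group came from separate cultures, so p-values measure the spread between these libraries, which may be technical. No replicate was a copy of another, since all pairs differed beyond sampling noise. The 10 genes and the lists were chosen with earlier results of these data known. Named outside the 10 genes were 10 given genes where tested and up to 3 further called genes per list with the largest changes, besides genes said to be named after their values were seen and the marker genes. The GC classes were set after seeing the data.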

Additional observations from a re-analysis of the deposited data

How the results depend on the processing

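The rises of Suz12, Rnf2 and Bmi1 kept their direction and passed in all 16 alternatives each, with log2 fold changes of Suz12 between 0.31 and 0.59. Over the 34 genes named by rule, 489 of 543 alternative values kept direction and side of the threshold, 36 lost the call, 9 gained one and 9 changed sign. With the length and GC correction, alone and with the replicate block, the sign changed for Ezh2 (-0.15 in both), Rbbp4 (-0.022 in both) and Rbbp7 (-0.026 in both). Cbx7, from -0.044 to 0.069 over the fits that leave out a library, changed sign without CTRL replicate 2 and CHD4-APR replicate 1 (-0.0066). Kdm6b, from -0.066 to 0.0016, changed sign without CTRL replicate 3. The Bmi1 to Pcgf2 log2 ratio was -0.20 with the correction and ranged from -0.093 to 0.35 on leaving out single libraries. The causes were not tested. The other Polycomb genes called were 28, 17 with the correction and 17 with correction and block. Leaving out single libraries gave 20 to 29. The level order by longest transcript kept 4 of 10 ranks, since the lengths change by construction. Of the 10 genes, 5 to 7 were called on leaving out single libraries, 7 without CTRL replicate 2. Genes called over the whole table ranged from 3557 with the correction to 5214, against 4871, and 3250 passed an FDR of 0.01.

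Whether the replicate numbers pair the samples is not known. The deviations of same-numbered libraries correlated at 0.070, 0.055 and -0.035. Replicates 1 and 2 correlated best with their own number and replicate 3 did not, and 3 libraries per group cannot decide it. With the replicate block 5214 genes were called, and Ring1 (FDR = 0.0259 by edgeR) and Phf1 (FDR = 0.0414) passed. With the block and the length and GC correction together Jarid2 passed (0.11, FDR = 0.0392) and Kdm1b did not (0.34, FDR = 0.0564).

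Asxl1 and Hoxb13 lost their calls in 8 of 16 alternatives each. Phf19 and Pcgf2 have too few counts to bound their changes closely, and genes at 0 give no fold change.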
